A study of Mus musculus with 4 samples.

Results

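T-box transcription factors are named after the DNA-binding domain that they share, and 6 of them from the Brachyury, Tbr1 and Tbx6 groups are described here: T (Brachyury, also written Tbxt), Tbx19, Tbr1, Eomes, Tbx21 and Tbx6. They were chosen by name among 21938 protein-coding genes, together with each H3K27me3 peak that touches the gene or its flanks of 20 kb and each row of the annotated peak tables that names the gene. This gave 23 of 10223 peaks in the list from 500 cells and 21 of 15282 peaks in the list from 15000 cells, and 23 and 22 annotated rows.

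The cells were erythro-myeloid progenitors (EMPs), the blood progenitors that bud from hemogenic endothelium of the yolk sac, purified from C57BL/6 mouse embryos at E10.5 (days of gestation). The genotype label of all libraries writes a floxed Ezh2 and a Tie2-Cre (a Cre active in endothelium) beside the words wild type, and the study treats the cells as wild type. H3K27me3 was profiled by CUT&RUN, in which an antibody directs a nuclease to the mark and the DNA released there is sequenced, in 1 library of 500 EMPs and 1 library of 15000 EMPs, each with an IgG library as background. The libraries also differed in PCR cycles (17 and 16), read length (76 and 59 bp), instrument and peak-calling threshold (p-value 0.01 and 0.05), so that cell number cannot be told apart from these. The study's reporting summary gives fewer reads and a lower alignment rate for 500 EMPs. The number of embryos behind each library was not given in the sources used here.

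H3K27me3 is placed by Polycomb repressive complex 2, whose catalytic subunit is Ezh2, and marks genes held silent in a cell type, often as wide domains over developmental regulators. T-box factors bind DNA through a related half-site and set cell fate early: T and Eomes act in the primitive streak and mesendoderm, Tbx6 in presomitic mesoderm, Tbr1 in young cortical neurons, Tbx21 (T-bet) in T helper and natural killer cells, and Tbx19 (Tpit) in corticotropes of the pituitary. A peak here is only a stretch called enriched over IgG. The files held no read count, height or p-value for a peak, the depth was unknown from them, and there was no replicate, so the differences below are between 2 libraries and carry no test.

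The genes fell into 2 kinds. T, Tbr1, Eomes and Tbx21 had peaks in both libraries, and Tbx19 and Tbx6 had none in either. The sequences just before the gene starts are given first, since these are the letters over which the mark was or was not found. Each is the 250 bases before the RefSeq start on GRCm38 (mm10), written 5′ to 3′ on the strand of the gene with every CpG dinucleotide in capitals. They lie at chr17:8434173-8434422 (+) for T, chr9:118477939-118478188 (+) for Eomes, chr11:97115332-97115581 (-) for Tbx21, chr1:165160774-165161023 (-) for Tbx19 and chr7:126781233-126781482 (+) for Tbx6. The RefSeq start of Tbr1 lies in an exon of a longer transcript, so no sequence is shown for it.
T: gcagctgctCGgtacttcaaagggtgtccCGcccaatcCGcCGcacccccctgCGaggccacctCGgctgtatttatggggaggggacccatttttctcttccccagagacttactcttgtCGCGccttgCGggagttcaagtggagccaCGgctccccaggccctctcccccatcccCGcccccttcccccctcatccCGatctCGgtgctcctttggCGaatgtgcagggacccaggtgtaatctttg
Eomes: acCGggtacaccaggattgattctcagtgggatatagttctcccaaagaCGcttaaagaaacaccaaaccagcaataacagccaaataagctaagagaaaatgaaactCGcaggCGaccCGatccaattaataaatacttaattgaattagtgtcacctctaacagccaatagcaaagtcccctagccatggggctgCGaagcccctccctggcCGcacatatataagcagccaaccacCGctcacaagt
Tbx21: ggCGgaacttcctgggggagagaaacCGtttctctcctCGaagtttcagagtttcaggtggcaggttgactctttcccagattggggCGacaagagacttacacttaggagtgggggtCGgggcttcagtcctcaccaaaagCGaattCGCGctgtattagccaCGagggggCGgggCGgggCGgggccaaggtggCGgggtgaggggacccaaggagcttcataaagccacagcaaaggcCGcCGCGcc
Tbx19: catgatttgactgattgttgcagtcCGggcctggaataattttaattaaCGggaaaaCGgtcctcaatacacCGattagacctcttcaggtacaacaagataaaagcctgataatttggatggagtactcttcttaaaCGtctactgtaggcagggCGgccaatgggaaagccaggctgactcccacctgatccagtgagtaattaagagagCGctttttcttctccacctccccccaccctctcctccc
Tbx6: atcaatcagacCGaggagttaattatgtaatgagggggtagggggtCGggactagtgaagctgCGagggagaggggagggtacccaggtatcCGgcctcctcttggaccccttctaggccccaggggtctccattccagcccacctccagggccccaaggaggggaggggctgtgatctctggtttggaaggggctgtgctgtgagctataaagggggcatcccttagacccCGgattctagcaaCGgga

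In these 250 bases T had 14 CpGs, Tbx21 had 16, Eomes had 8, Tbx19 had 7 and Tbx6 had 6. With 15000 EMPs a peak covered all 250 bases at T, Eomes and Tbx21, and 0 bases at Tbx19 and Tbx6. With 500 EMPs the peaks covered 250 bases at Tbx21, 213 bases at Eomes and 0 bases at T, Tbx19 and Tbx6. The stretch before T was thus covered only in the library with more cells, although peaks of the smaller library lay on both sides of it.

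The narrowest peak of the 500-EMP list outside exons at each of T, Eomes and Tbx21 is printed next, to show how little sequence carried a call. Each lay entirely within a peak of the 15000-EMP list. They are chr17:8433271-8433452 (182 bp, before T), chr9:118468623-118468759 (137 bp, before Eomes) and chr11:97116136-97116272 (137 bp, before Tbx21, minus strand), written and marked in the same way.
T: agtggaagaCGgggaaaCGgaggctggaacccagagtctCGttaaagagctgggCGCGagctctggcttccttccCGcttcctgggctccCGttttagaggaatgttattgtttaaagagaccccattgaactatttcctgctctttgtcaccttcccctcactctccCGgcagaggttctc
Eomes: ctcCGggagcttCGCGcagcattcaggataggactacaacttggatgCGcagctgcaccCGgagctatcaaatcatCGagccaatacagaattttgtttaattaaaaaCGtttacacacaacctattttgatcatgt
Tbx21: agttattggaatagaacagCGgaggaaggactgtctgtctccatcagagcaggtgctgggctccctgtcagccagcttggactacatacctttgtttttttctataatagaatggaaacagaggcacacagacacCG

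The pieces before T and Eomes held 8 and 7 CpGs, and the piece before Tbx21 held 2. The ratio of CpGs observed to those that base composition would give was 0.607, 1.08 and 0.261. The next narrowest such piece at each gene (255, 266 and 293 bp) had a ratio of 0.309 at T, 0.133 at Eomes and 0.236 at Tbx21, so the order of the genes rests on which piece is taken. A width of 137 bp was the smallest in the 500-EMP list and was shared by 1759 of its peaks.

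By the study's limit of 3 kb from a transcription start site (TSS, here the 5′ end of the gene in GENCODE vM21), 4 of the 6 genes had a peak with 500 EMPs, against 9.92% of all protein-coding genes (95% Wilson interval 9.53 to 10.3%). The same 4 had a peak with 15000 EMPs, against 17.0% of all protein-coding genes (interval 16.5 to 17.5%). In the gene or within 20 kb, the count was again 4 of 6 in each library, beside 18.6% (interval 18.0 to 19.1%) and 30.1% (interval 29.5 to 30.8%) of protein-coding genes. The counts did not change with the limit, because the genes without a peak within 3 kb had none within 20 kb. The intervals of the shares hold counting error alone, and not the spread between libraries or limits.

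**Figure D1:**
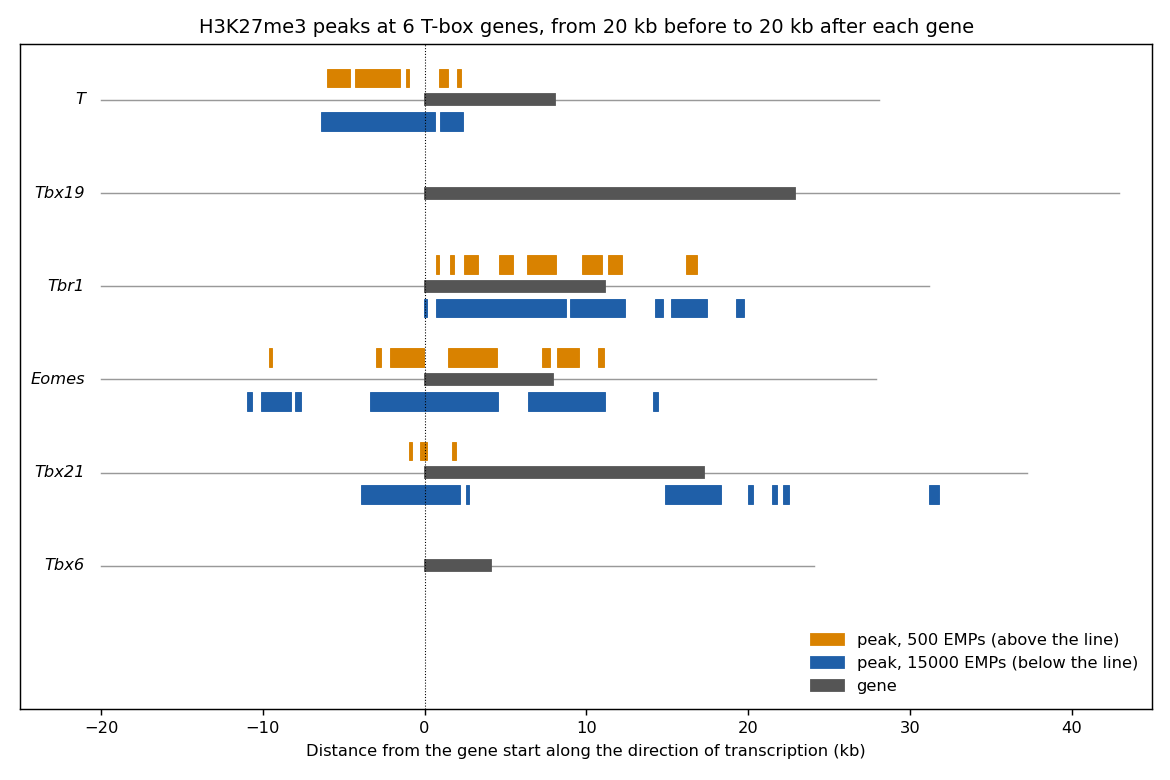
Positions of H3K27me3 peaks at the 6 genes, by distance from the gene start in kb along the direction of transcription. Orange boxes above each line are peaks of the 500-EMP library, blue boxes below it are peaks of the 15000-EMP library, grey boxes are the genes and the grey lines end 20 kb beyond them. T carried its peaks mostly before the start and Tbr1 over the gene. Eomes had peaks over the gene and on both sides of it, and Tbx21 at both ends with 15000 EMPs. Tbx19 and Tbx6 had 0 peaks.

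T, the founding T-box gene, is needed for the notochord and posterior mesoderm. It lies on chromosome 17 from 8434423 to 8442496 on the plus strand. With 15000 EMPs a peak of 7003 bp (8428047 to 8435049) ran from 6376 bp before the TSS to 626 bp into the gene and ranked 410 of 15282 by width. A second peak of 1438 bp (8435362 to 8436799) lay wholly in the gene, with 229 bp in exons and 1209 bp in introns. With 500 EMPs there were 5 peaks, of 1449, 2764, 182, 500 and 255 bp. The first 3 of these lay before the TSS, and none covered it, the nearest starting 922 bp inside the gene. The mark at T was therefore placed mostly before the gene: in the window of 20 kb on either side of it, 4395 of 5150 covered bp with 500 EMPs and 6376 of 8441 covered bp with 15000 EMPs lay upstream, and 0 bp downstream. Only 9.35% of the gene itself was covered with 500 EMPs and 25.6% with 15000 EMPs, and its 3′ part was bare in both.

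The annotated table of the 15000-EMP library named T for 3 further peaks outside the window of 20 kb. One of 2478 bp (8388602 to 8391079) lay in the body of the neighbouring gene T2, 43344 bp before the TSS of T. The others, of 274 and 219 bp, lay 27716 and 29267 bp beyond the 3′ end in the authors' distance column. The 500-EMP list had 0 peaks at these 3 places. The peak farthest from its gene but inside the window was one of 654 bp at Tbx21, 13904 bp beyond its 3′ end, which the authors' table assigned to Mir8103.

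Tbx19, the closest relative of T among these genes, drives expression of the corticotropin precursor Pomc in the pituitary. It lies on chromosome 1 from 165137855 to 165160773 on the minus strand. In its window of 62919 bp there were 0 peaks in either library. The nearest peaks lay 120.5 kb away with 500 EMPs (165281259 to 165281395, 137 bp) and 120.0 kb away with 15000 EMPs (165280788 to 165281627, 840 bp), overlapping each other and assigned by the authors' table to Gpr161. The only other protein-coding gene in the window, Sft2d2, had 0 covered bp as well. Of the 2 genes of the Brachyury group, T thus had peaks within 3 kb of its TSS in both libraries and Tbx19 had none for over 100 kb in either.

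In the Tbr1 group all 3 genes carried peaks, each with its own layout. Tbr1, a regulator of deep-layer cortical neurons, lies on chromosome 2 from 61802930 to 61814114 on the plus strand. With 15000 EMPs it had 6 peaks, of which one of 8055 bp (61803617 to 61811671) was the widest at any of the 6 genes and ranked 299 of 15282. The next, of 3370 bp (61811939 to 61815308), crossed the 3′ end. Together the peaks covered 10391 bp of the gene, or 92.9% of it. With 500 EMPs there were 8 peaks, between 159 and 1773 bp wide, that covered 45.8% of the gene. Upstream of the GENCODE 5′ end there was almost no cover, at 0 bp with 500 EMPs and 20 bp with 15000 EMPs, whereas downstream cover was 1559 and 4321 bp. By the GENCODE limits, the peaks at Tbr1 thus lay over the gene and its 3′ side, whereas those at T lay mostly before the gene.

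The position of the Tbr1 start mattered for its value. From the GENCODE 5′ end, peaks covered 977 bp within 3 kb with 500 EMPs and 2494 bp with 15000 EMPs. RefSeq places the start 1523 bp farther in, at 61804453, and the covered lengths around that start were 1274 and 4017 bp. The 250 bases before it were covered in full with 15000 EMPs and over 0 bases with 500 EMPs, so the cover before the start depends on the start used. The start base itself had no peak with 500 EMPs at either place, the nearest peak being 717 bp from the first and 79 bp from the second.

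Eomes (Tbr2) acts in mesendoderm, in intermediate progenitors of the cortex and in cytotoxic lymphocytes. It lies on chromosome 9 from 118478212 to 118486132 on the plus strand. With 15000 EMPs a peak of 7887 bp (118474842 to 118482728), ranked 314 by width, ran from 3370 bp before the TSS to 4516 bp past it. A peak of 4724 bp (118484635 to 118489358) crossed the 3′ end, and 3 peaks of 304, 1847 and 358 bp formed a group between 10985 and 7651 bp before the TSS. The stretch reaching 3 kb to either side of the TSS was covered over all 6001 bp, as at 139 protein-coding genes in this library, Eomes included. With 500 EMPs there were 7 peaks, and the widest of these, of 3026 bp (118479648 to 118482673), ranked 140 of 10223. Here 3902 bp within 3 kb of the TSS were covered, and only 82 protein-coding genes had more. Of the 6 genes, Eomes had the most covered bp around its start in both libraries. Peaks covered 44.3% of the Eomes gene with 500 EMPs and 75.9% with 15000 EMPs.

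An antisense gene, Gm33460, overlaps the 3′ end of Eomes. All 3541 bp of it were covered with 15000 EMPs and 1965 bp with 500 EMPs. CUT&RUN reads DNA without regard to strand, so cover at this end belongs to both genes. The last peak of the Eomes window, of 346 bp (118492328 to 118492673), was assigned to Golga4 in the authors' table.

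Tbx21 directs type 1 helper T cell and natural killer cell programmes. It lies on chromosome 11 from 97098071 to 97115331 on the minus strand. With 500 EMPs it had 3 peaks, of 293, 439 and 137 bp, together 869 bp, and the peak of 439 bp (97115155 to 97115593) was the only one of this library at the 6 genes that covered a TSS. With 15000 EMPs it had 7 peaks and 11506 covered bp in the window, 13.2 times as many. The widest, of 6140 bp (97113143 to 97119282), ran from 3951 bp before the TSS to 2188 bp past it and ranked 556 of 15282. A separate peak of 3504 bp (97096982 to 97100485) crossed the 3′ end of the gene and held 0 peaks of the 500-EMP list. Between the ends, the middle of Tbx21 was bare in both libraries. The covered share of the gene was 2.72% with 500 EMPs and 28.0% with 15000 EMPs.

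Tbx6, which specifies presomitic mesoderm, lies on chromosome 7 from 126781483 to 126785560 on the plus strand. Its window of 44078 bp held 0 peaks in either library. The nearest peak with 15000 EMPs was one of 856 bp (126824178 to 126825033), 38.6 kb beyond the gene and inside Fam57b. With 500 EMPs the nearest lay 507.7 kb away in Sbk1. The window of Tbx6 also touches the protein-coding genes Mapk3, Gdpd3, Ypel3, Ppp4c, Aldoa and Fam57b, and none of these had a covered bp inside it. A gene without a call is not shown to lack the mark, since the files give no signal at these places.

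The amount of cover around the starts was then ordered. Within 3 kb of the TSS the covered lengths with 15000 EMPs were 6001 bp at Eomes, 5411 bp at Tbx21, 5065 bp at T, 2494 bp at Tbr1 and 0 bp at Tbx19 and Tbx6. With 500 EMPs they were 3902 bp at Eomes, 2424 bp at T, 977 bp at Tbr1, 869 bp at Tbx21 and 0 bp at Tbx19 and Tbx6. Eomes came first in both orders, and the place of Tbx21 depended on the limit. Within 1 kb of the TSS, the order with 500 EMPs turned to 940 bp at Eomes, 576 bp at Tbx21, 159 bp at Tbr1 and 109 bp at T, and with 15000 EMPs Eomes and Tbx21 tied at 2001 bp. With 500-EMP peaks within 3 kb of each other joined, Tbx21 (2904 bp) also lay above Tbr1 (2284 bp). With 1 library for each cell number, no spread was available to say which neighbours in these orders differ.

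Over all protein-coding genes the median was 0 bp in both libraries. The median over the 6 genes was 923 bp with 500 EMPs and 3780 bp with 15000 EMPs. Among the 2177 genes with any cover in the 500-EMP library the median was 789 bp, and among the 3728 such genes in the 15000-EMP library it was 2743 bp. T and Eomes lay above these medians in both libraries. Tbr1 lay above it with 500 EMPs, and with 15000 EMPs below it from the GENCODE start (2494 bp) but above it from the RefSeq start (4017 bp), and Tbx21 lay slightly above it with 500 EMPs and well above it with 15000 EMPs. In the 15000-EMP library 97.5% of genes had less cover than T, 98.3% less than Tbx21, 99.4% less than Eomes and 90.7% less than Tbr1.

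**Figure D2:**
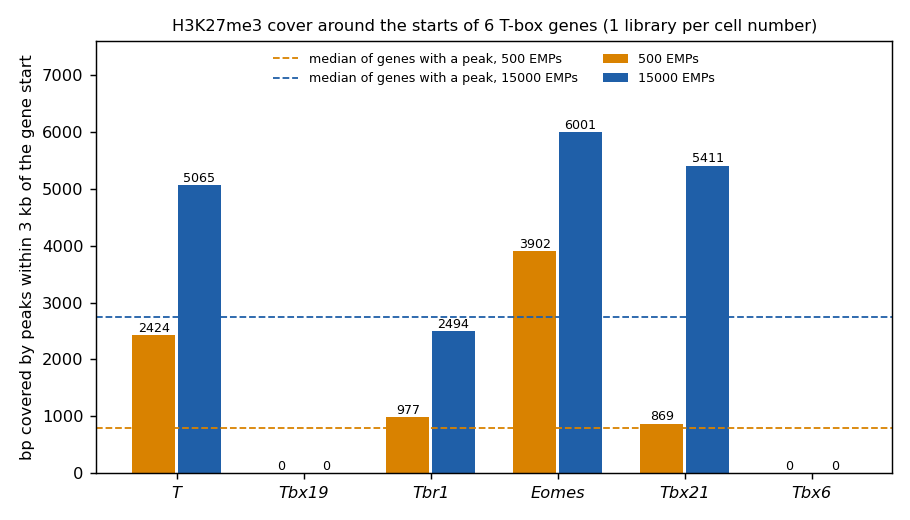
Base pairs covered by H3K27me3 peaks in the stretch reaching 3 kb to either side of the gene start, for each of the 6 genes. Orange bars are the library of 500 EMPs and blue bars the library of 15000 EMPs, 1 library each and hence no error bars. Dashed lines are the medians over protein-coding genes with any cover, 789 and 2743 bp. Eomes fills the whole window of 6001 bp with 15000 EMPs, and Tbx19 and Tbx6 are at 0.

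Because the low-input profile could place peaks elsewhere, the positions were compared. All 23 peaks of the 500-EMP list at these genes overlapped a peak of the 15000-EMP list (95% Wilson interval 85.7 to 100%, for counting error alone), beside 91.2% of the whole 500-EMP list. This interval and the next treat each peak as independent, although several lay in the same domain, so both may be too narrow. In base pairs, 20477 of 20494 covered bp were shared, the exception being T, where 5133 of 5150 bp were shared. In the other direction 9 of 21 peaks of the 15000-EMP list held a 500-EMP peak (42.9%, interval 24.5 to 63.5%), beside 32.2% of the whole list. The 12 without one measured from 180 to 3504 bp, and 6 of them were at Tbx21.

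Cover in the windows was larger with 15000 EMPs at each gene that had any. It was 8441 against 5150 bp at T, a ratio of 1.64. Eomes had 15466 against 7790 bp, a ratio of 1.99, and at Tbr1, with 14732 against 6685 bp, the smaller library held 45.4% of the larger cover, beside 50.4% at Eomes, 60.8% at T and 7.55% at Tbx21. At Tbx21 the ratio was 13.2. Over the 6 genes together it was 2.45, and over the whole lists it was 4.03. In the whole lists that share was 23.1%, so the cover of T, Eomes and Tbr1 differed less between the libraries than that of the whole lists, and the cover of Tbx21 differed more. The part that depth, threshold or cell number had in these ratios was not tested.

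The wide peaks of the 15000-EMP library corresponded to several pieces with 500 EMPs. The Tbr1 peak of 8055 bp held 5 pieces, which covered 48.5% of it. A set of 3 pieces covered 68.0% of the Eomes peak of 7887 bp, and 3 pieces covered 62.8% of the T peak of 7003 bp. The Tbx21 peak of 6140 bp also held 3 pieces, but these covered 14.2% of it. When peaks within 3 kb of each other were joined, T became 1 domain in each library, of 8279 bp with 500 EMPs and 8753 bp with 15000 EMPs, so that both libraries gave T nearly the same outer limits. Tbr1 then had a main domain of 11488 bp with 500 EMPs and a single domain of 19744 bp with 15000 EMPs, and the main Eomes domains were 14084 and 17832 bp. Tbx21 differed most, with 1 domain of 2904 bp with 500 EMPs and 3 domains of 6728, 7663 and 654 bp with 15000 EMPs.

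CpG content was examined next, because Polycomb domains are known to favour CpG-dense starts. In 1001 bp centred on the GENCODE TSS, the observed over expected CpG ratio was 0.761 at Tbx21, 0.647 at T, 0.622 at Eomes, 0.330 at Tbx6, 0.280 at Tbx19 and 0.254 at Tbr1. The median over all protein-coding genes was 0.55. T, Eomes and Tbx21 passed the usual island limits (a ratio of at least 0.6 and a G+C share of at least 50%) and had peaks, and Tbx19 and Tbx6 did not pass them and had none. Tbr1 goes against this pattern, since its ratio was below that of both bare genes and it was covered. Other T-box genes did so too: Tbx4 (ratio 0.512), Tbx5 (0.426) and Tbx15 (0.364) did not pass the limits and had 5165, 6001 and 6001 bp covered with 15000 EMPs. At the RefSeq start of Tbr1 the ratio was 0.473, still under the limit. Eomes lay close to the limit, and at its RefSeq start, 23 bp upstream, the ratio was 0.587 and no longer passed it. Among the 9740 protein-coding genes past the limits, 13.7% had a peak within 3 kb with 500 EMPs and 21.8% with 15000 EMPs, and among the other 12198 genes 6.89% and 13.1% did. Most CpG-rich starts thus had no peak either.

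Within the covered windows, CpGs were denser inside the peaks than outside them. With 15000 EMPs there were 32.4 CpGs per kb inside and 10.6 outside at Eomes, 27.4 and 10.3 at T, 25.3 and 12.5 at Tbx21, and 23.2 and 10.4 at Tbr1. With 500 EMPs the densities inside and outside were 30.3 and 15.2 at Eomes, 46.0 and 14.6 at Tbx21, and 16.5 and 13.7 at Tbr1, and T had 103 CpGs in its 5150 covered bp and 12.5 per kb outside. The whole windows of Tbx19 and Tbx6 had 13.5 and 18.8 CpGs per kb, and that of Tbx6 was the densest of the 6.

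**Figure D3:**
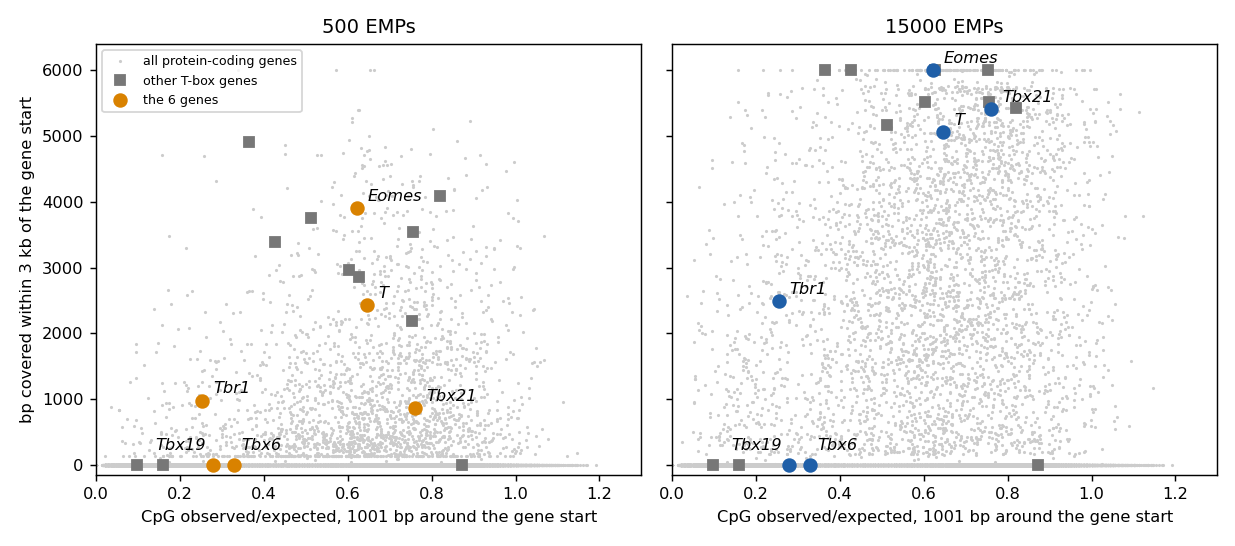
Cover by H3K27me3 peaks within 3 kb of the gene start in bp, against the observed over expected CpG ratio in 1001 bp around the start, for 500 EMPs (left) and 15000 EMPs (right). Large circles are the 6 genes, grey squares the other 11 T-box genes and small grey dots all 21938 protein-coding genes. Tbr1 sits at a ratio of 0.254 with cover in both libraries, beside Tbx19 and Tbx6 at 0.

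The remaining T-box genes of the mouse were set beside these 6. Of 11 (Tbx1, Tbx2, Tbx3, Tbx4, Tbx5, Tbx10, Tbx15, Tbx18, Tbx20, Tbx22 and Mga), 8 had a peak within 3 kb of the TSS in each library, the exceptions being Tbx10, Tbx22 and Mga. The median cover was 2971 bp with 500 EMPs and 5521 bp with 15000 EMPs. Of all protein-coding genes, 9.92% and 17.0% had a peak within 3 kb in these libraries. Tbr1, at 977 and 2494 bp, lay below all 8 covered genes, which had at least 2181 and 5165 bp. Tbx21, at 869 bp, also lay below them with 500 EMPs but within their range with 15000 EMPs. T was the reverse, within their range with 500 EMPs (2424 bp) and just below it with 15000 EMPs (5065 bp). Mga, a T-box protein with broad expression, had a CpG ratio of 0.873 and no peak.

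Genes that act with these factors were counted in the same way. Of 22 genes of the primitive streak and early mesoderm, the setting of T, Eomes and Tbx6, 14 had a peak with 500 EMPs and 17 with 15000 EMPs, with a median of 415 and 3464 bp. They included Mixl1 (506 and 2601 bp), Mesp1 (324 and 3814 bp), Nodal (1028 and 3580 bp) and Wnt3a (3250 and 5762 bp), a ligand that acts upstream of T. Without a peak within 3 kb in either library were Mesp2, Msgn1, Wnt8a, Fgf4 and Hes7, and Snai1, Ripply2 and Lfng had none with 500 EMPs. Known targets of Tbx6 in presomitic mesoderm were found on both sides, Mesp2 and Msgn1 without cover within 3 kb and Dll1 with 3444 and 6001 bp. In the windows of 20 kb, Mesp2 had 1 peak in each library and Msgn1 had none.

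Cortical neuron genes, the setting of Tbr1, had a peak within 3 kb in 9 of 12 cases with 500 EMPs and 11 of 12 with 15000 EMPs. Their median cover was 1740 and 5000 bp. Auts2 had no peak within 3 kb in either library, and Sox5 and Neurod6 had none there with 500 EMPs. In its window of 20 kb, Auts2 had 5 peaks with 15000 EMPs. Fezf2, which specifies subcortically projecting neurons, had 2580 and 6001 bp. Of 11 genes of the pituitary corticotrope and its lineage, 8 and 9 had a peak, with a median of 243 and 2574 bp. Both lists stand beside 9.92% and 17.0% of all protein-coding genes. Pomc, the target of Tbx19, had 0 bp with 500 EMPs and 1101 bp with 15000 EMPs, and the lineage regulator Pitx1 had 4563 and 6001 bp. Tbx19 was thus uncovered while 8 and 9 of the genes listed around it were covered.

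Lymphocyte genes were counted last. Of 14 genes around Tbx21 and Eomes in T and natural killer cells, 0 had a peak with 500 EMPs and 1 with 15000 EMPs, the homeobox gene Hlx with 1183 bp, and the median was 0 bp in both. Ifng, Cxcr3, Il2rb, Prf1 and Gzmb, which act in these cells' effector functions, were among those without a call. In the windows of 20 kb, but farther than 3 kb from the TSS, Runx3 had 7 peaks in each library, Hlx had 8 with 500 EMPs and Itgae had 1 with 15000 EMPs. The transcription factor genes Zeb2 and Stat4 of the same list had no peak in their windows either. Over all protein-coding genes the shares were 9.92% and 17.0%, not far from 0 and 1 of 14. These lists are small and were written with earlier results known, so the counts describe these libraries and do not show that one list differs from another.

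**Figure D4:**
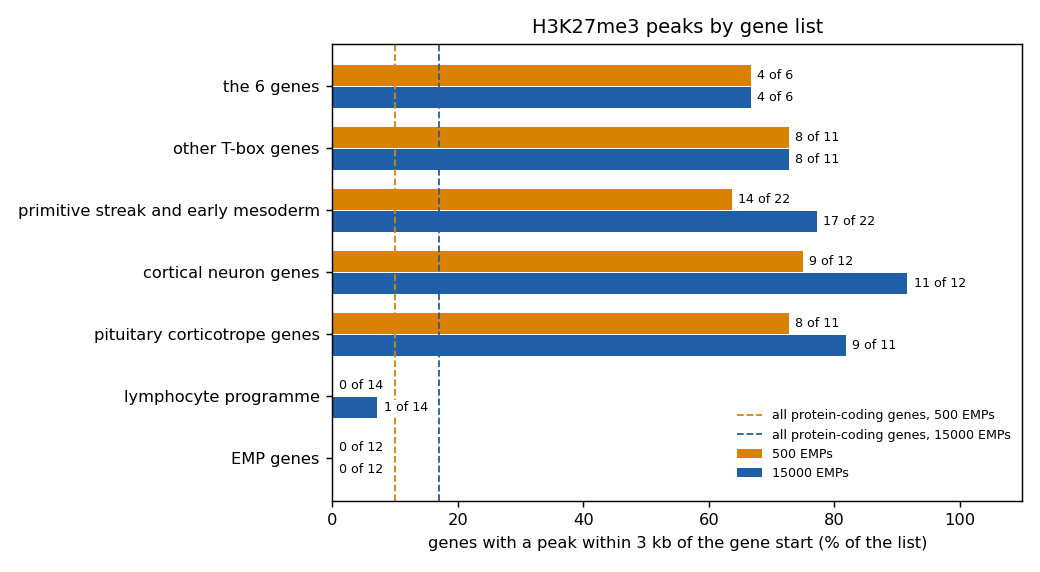
Share of each gene list with an H3K27me3 peak within 3 kb of the gene start, in percent, with the count beside each bar. Orange is the library of 500 EMPs and blue that of 15000 EMPs, and dashed lines mark all protein-coding genes (9.92% and 17.0%). The 6 genes reach 4 of 6 in both libraries, the lymphocyte programme 0 and 1 of 14 and the EMP genes 0 of 12.

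The labelled cell type was checked as far as a repressive mark allows. Of 12 genes of the EMP gate and lineage, among them Kit, Itga2b, Runx1, Gata1 and Spi1, 0 had a peak within 3 kb in either library. Beside 9.92% and 17.0% of all protein-coding genes this is a small difference in so short a list, and it says little about these genes. Fcgr3, of the same list, had 7 peaks with 500 EMPs and 5 with 15000 EMPs in its window of 20 kb, all farther than 3 kb from its TSS, and the other 11 had none there. The endothelial list of 7 had calls at Sox17 and Erg in both libraries and at Kdr with 15000 EMPs alone. Of 7 genes of yolk sac mesenchyme and epithelium, Pdgfra, Col1a1, Twist1 and Epcam had a call in both, and Afp, Apoa1 and Ttr, which are expressed in yolk sac endoderm, had none in either. A peak list does not measure RNA, so these counts do not give the purity of the cells.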

How the data were processed

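The authors aligned reads to mm10 (GRCm38) with Bowtie2 2.2.1 and called broad peaks for each H3K27me3 library separately with MACS2 2.1.2, with IgG as control, at a p-value of 0.01 (500 EMPs) or 0.05 (15000 EMPs). Their listing of the commands pairs each threshold with the library of the other cell number, and the lists were taken as labelled. The deposited files hold no score: their values are peak positions in bp and, in the annotated tables made with ChIPpeakAnno, a gene, category and distance in bp. Peak positions were taken from the lists and converted to 1-based starts. Gene positions came from GENCODE vM21, sequences from RefSeq (GRCm38.p6), and 0 peaks ran past a chromosome end. Promoter sequences were matched for all 6 genes. Overlap meant at least 1 bp, and a 95% Wilson interval covers counting error only. Groups came from sample titles. The interval functions were tested on simulated data. Python 3.11.15, scipy 1.17.1 and pysam 0.24.0 were used. All 6 genes were named whatever their values, and in the lists the genes without a peak (or with one, if fewer), other examples being chosen after their values were seen. The members and lists were chosen with earlier results of these data known. Alternative limits, windows, starts, joining and overlap rules were tried. No paper values and no IgG peaks were used. Genes of the pituitary list without a peak are not reported here by name.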

Additional observations from a re-analysis of the deposited data

How the results depend on the processing

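Of 51 alternatives to the counts, lengths and shares over all genes or all 6 genes, 36 stayed within a factor of 1.5 or, for shares, within the 95% interval. The count of 4 of 6 genes with a peak was unchanged in both libraries with limits of 1 kb and 5 kb, with the start of any transcript, with the authors' distance column, with windows of 10 kb and 5 kb and without the narrowest peaks. Joining peaks within 1 kb left 13 peaks at the 6 genes in each library, and joining within 3 kb left 6 with 500 EMPs and 7 with 15000 EMPs. The summed cover around the 6 starts was 8172 bp with 500 EMPs and 18971 bp with 15000 EMPs. It was 1784 and 6185 bp within 1 kb, by the smaller window, and 16409 bp with 500 EMPs after joining within 3 kb. Of the 23 peaks with 500 EMPs, 0% had a partner when at least 50% of both peaks had to be shared, since the pieces are shorter than the peaks that hold them. The share of protein-coding genes with a peak moved for 500 EMPs to 7.39% (1 kb), 10.6% (5 kb), 11.0% (any transcript start) and 8.96% (without the narrowest peaks), and for 15000 EMPs to 15.2%, 17.9% and 18.5% under the first 3 of these. For single genes 43 of 60 alternatives stayed within a factor of 1.5. A stricter peak threshold could not be tried, because the files hold no score. No paired analysis was possible because each group had 1 library.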

Other observations

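Motifs were searched on both strands in the 300 bases around each RefSeq start (250 before and 50 after) of the 6 genes and of 32851 promoters in all, alternative promoters counted separately. The T-box half-site AGGTGTGA was found in 0 of the 6 and in 1.28% of all promoters. CCAAT was found at T, Tbx19, Tbr1, Eomes and Tbx21, and in 37.4% of all promoters. TATAAA was found only at Tbx6 among the 6 genes, and in 13.6% of all promoters. A match is a string of letters and no sign of binding, and these windows are short beside the domains described above.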
